A study of Mus musculus with 49 samples.

Results

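The response of area CA1 to mutant tau was set against the response of the dentate gyrus (DG). For each transcript, the difference between rTg4510 and tTA mice in DG was subtracted from the difference between rTg4510 and tTA mice in CA1, and the result is called the CA1-minus-DG difference here. It rests on 21 of the 49 arrays of the series, picked by the genotype and subfield in their labels, and on 22626 of the 22716 probe sets (short groups of probes that read 1 transcript), which are all that are not control features. rTg4510 mice carried a responder transgene for mutant human tau together with tTA, the tetracycline-controlled transactivator that switches it on. tTA mice carried the transactivator alone, and DN (double negative) mice carried neither transgene. The transactivator was driven by the Camk2a promoter, which is active in forebrain excitatory neurons, and the line was kept on a mixed 129S6 and FVB/N background. All mice were female and 6.1 months old. CA1 was profiled in 5 rTg4510 and 5 tTA mice, and DG in 6 rTg4510 and 5 tTA mice, so that 5 rTg4510 and 5 tTA mice gave both subfields and rTg4510 mouse4621 gave DG alone. The 28 remaining arrays, from DN mice and from CA3, entered the fit to estimate the spread.

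CA1 pyramidal neurons are the output cells of the hippocampus proper, and dentate granule cells relay cortical input to CA3. Tau is a microtubule-binding protein of axons, and in tauopathies it becomes phosphorylated, moves into the cell body and aggregates, with CA1 among the fields that lose neurons. Around such neurons microglia and astrocytes take on a reactive state, in which complement, lysosomal and antigen presentation genes are known to rise. The cell layers were cut from stained sections by laser capture, so each array holds RNA of the neurons of 1 layer together with that of the glia and interneurons inside it.

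Expression is given in log2 units, so that 1 unit is a 2-fold change. Calls of single probe sets come from a limma fit across all of them, with an adjusted p below 0.05. The array medians lay between 4.95 and 5.07 in the CA1 and DG groups, and 0 pairs of arrays within a group were identical. Probe sets varied less within DN groups, with a median SD of 0.16 in CA1 and 0.17 in DG, than within the transgenic groups, with 0.22 to 0.23. The 3-prime to 5-prime signal ratio of Actb, which moves with RNA integrity, differed between CA1 and DG of a mouse by 0.058 ± 0.19 in rTg4510 mice and by −0.089 ± 0.14 in tTA mice (SD, n = 5 each), a difference of 0.147 (exact permutation test, two-sided, p = 0.183, adjusted over 2 ratios p = 0.365). The smallest p that this design allows is 0.00794.

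The response differed between the subfields for 1233 probe sets, of which 723 lay above 0 and 510 below 0. These are 5.45% of all probe sets tested, or 3.2% above and 2.25% below 0, and they cover 871 genes. A size of at least 2-fold was reached by 507 of them. In 383 (31.1%) a group mean of the comparison was dim, below the median level over probe sets of 5.04. Those of C4b, Lcp1, Cdkn1a and Mog are among these. The CA1 change was the larger in 1025 probe sets and the DG change in 208. Within CA1 itself 932 were called between rTg4510 and tTA mice but not within DG, 89 within DG but not within CA1, 16 within both with opposite signs, 1 within both with the same sign and 195 within neither. For comparison, rTg4510 and tTA mice differed in 13.3% of all probe sets in CA1 and in 3.11% in DG. With 1 probe set a gene, the brightest, 3.61% of all genes had a called CA1-minus-DG difference above 0 and 2.53% below 0. The counts of called members in each gene list below are to be read beside these 2 shares. The call depended on which arrays gave the spread: with the 21 arrays of the comparison alone 490 probe sets were called (2.17%), 475 of them among the 1233, and in a fit of within-mouse differences 135 were called (0.597%), 133 of them among the 1233. Without rTg4510 mouse4653 the count was 769, and without rTg4510 mouse4666 it was 801.

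**Figure D1:**
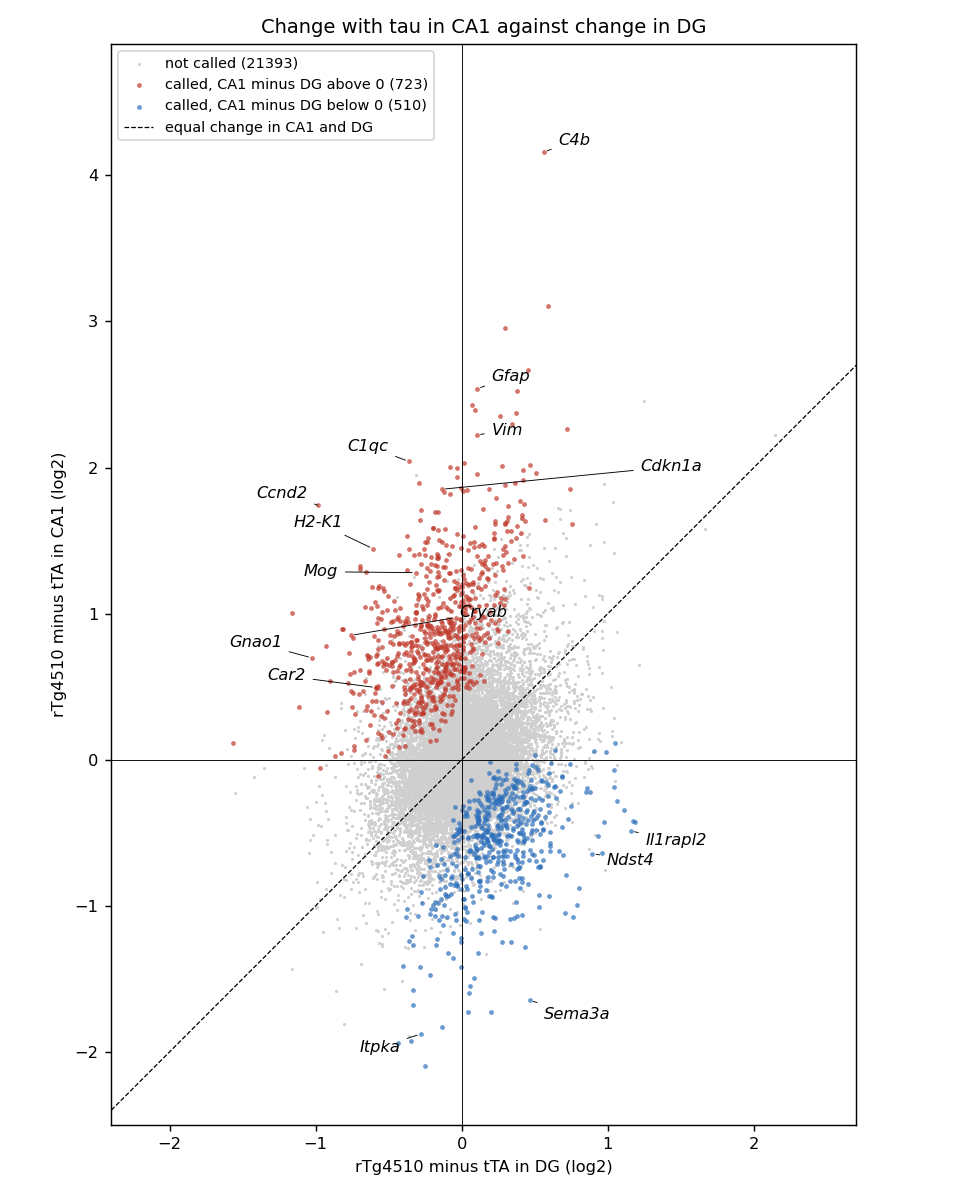
Change with mutant tau in CA1 (vertical axis, rTg4510 minus tTA, log2) against the change in DG (horizontal axis, log2), 1 point per probe set. The 723 red points were called with a CA1-minus-DG difference above 0 and the 510 blue points below 0. The dashed line marks equal change in both subfields, and most coloured points spread along the CA1 axis.

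Single genes are described below mainly where the call held in all 49 arrays, in the 21 arrays alone and without each rTg4510 and each tTA mouse in turn. Of 130 probe sets named by rule, 118 were called and 63, of 59 genes, passed this stricter condition. The 63 were chosen by the difference itself, so nothing is read from the fact that in 49 of them the CA1-minus-DG values of the 5 rTg4510 and the 5 tTA mice did not overlap (3.39% of all probe sets) or that 31 were also called in the within-mouse fit. Where array groups of a single gene are said below not to overlap, this too only describes genes picked in this way.

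C4b, a component of the classical complement pathway, had the most positive called difference. It read 7.62, 7.73, 9.0, 9.17 and 9.19 in CA1 of rTg4510 mice, against 4.22, 4.26, 4.34, 4.38 and 4.39 in CA1 of tTA mice. In DG it ran from 5.70 over a median of 7.74 to 8.13 in rTg4510 mice, and read 5.57, 6.48, 7.10, 7.25 and 8.10 in tTA mice. The CA1 groups therefore did not overlap, while the DG groups did. The change was 4.16 in CA1 (17.9-fold) and 0.56 in DG, and the CA1-minus-DG difference was 3.60 (SE 0.49, adjusted p = 2.35e-05). C4b is nearly identical to its copy C4a, and the probe set may read both. The 3 chains of C1q, which start the classical pathway, were also called above 0: C1qc differed by 2.40 (SE 0.39), C1qb by 1.95 and C1qa by 1.90. C1qc read 6.01, 7.33, 7.58, 7.92 and 8.59 in CA1 of rTg4510 mice, against 5.01, 5.16, 5.55, 5.63 and 5.80 in tTA mice. In DG C1qc lay between 6.27 and 7.28 in rTg4510 mice, against 6.59 to 7.44 in tTA mice. Of 21 complement genes measured, 9 had a called difference, all above 0, against 3.61% of all genes above 0, and their number was 7 to 10 when a mouse was left out, 6 in the 21 arrays and 3 in the within-mouse fit. The median over the 21 genes was 0.66, against −0.02 over all probe sets. The list shares C1qa, C1qb, C1qc, Itgam and Itgb2 with the microglia list below, so calls of these genes count in both.

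Microglial genes made up the list with the highest median. Of 25 microglia genes, 16 were called above 0, beside 3.61% of all genes, and 0 below 0. The median difference of the list was 1.32, from a median change of 0.96 in CA1 and of −0.02 in DG. Tyrobp, the adaptor that carries the signal of TREM2 and related receptors, read 9.44, 9.48, 10.03, 10.45 and 10.46 in CA1 of rTg4510 mice, against 7.44, 7.71, 8.09, 8.35 and 8.40 in CA1 of tTA mice. In DG it ran from 8.56 over 9.12 to 9.51 in rTg4510 mice, against 7.97, 9.07, 9.17, 9.44 and 9.44 in tTA mice, and these groups overlapped. Its difference was 1.85 (SE 0.30, adjusted p = 0.000183). Ptprc, the leukocyte phosphatase CD45, differed by 1.95 (SE 0.31) and Cx3cr1, the fractalkine receptor of microglia, by 1.86. Ctss, the protease cathepsin S, differed by 1.32 (SE 0.24), with 10.85 to 11.67 in CA1 of rTg4510 mice against 9.05 to 9.83 in tTA mice. Not called were 9 of the 25, among them Trem2 itself (0.12, 95% interval −0.18 to 0.42) and P2ry12, a receptor of resting microglia (0.40, adjusted p = 0.334). The Trem2 probe set was dim: it read 3.63 to 4.31 in CA1 of rTg4510 mice and 3.55 to 4.07 in tTA mice, below the median over probe sets of 5.04. The number of microglia genes called was 8 in the 21 arrays, 6 in the within-mouse fit and 11 to 15 when a mouse was left out. Of 31 activated microglia genes 13 were called above 0 and 0 below 0, with a median of 0.59, among them Apoe, the lipid carrier (1.31, SE 0.28), and Cd52, a surface protein of leukocytes (1.56, SE 0.24). The activated microglia count was 4 in the 21 arrays and 0 of 31 in the within-mouse fit. In these captured layers, more microglia and more RNA per microglial cell cannot be told apart, and the same holds for every cell type below.

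The promoters of 4 microglia genes are shown, out of 7 that carry the letters GAGGAAG or their reverse complement CTTCCTC, the core that the myeloid transcription factor PU.1 binds, on either strand. Shown are all 3 genes with a called difference and 1 of the 4 without one, Trem2. Each promoter runs from 250 bases before to 50 bases after the gene's start, from RefSeq on GRCm38.p6, with the matched letters in capitals.
C1qc (chr4:136892865-136893164, minus strand): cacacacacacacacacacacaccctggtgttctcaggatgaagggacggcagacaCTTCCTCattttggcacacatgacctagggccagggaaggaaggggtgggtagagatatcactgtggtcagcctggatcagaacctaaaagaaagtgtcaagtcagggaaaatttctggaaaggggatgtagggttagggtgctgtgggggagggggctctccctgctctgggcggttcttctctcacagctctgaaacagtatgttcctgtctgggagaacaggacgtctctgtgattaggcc
Ctss (chr3:95526536-95526835, plus strand): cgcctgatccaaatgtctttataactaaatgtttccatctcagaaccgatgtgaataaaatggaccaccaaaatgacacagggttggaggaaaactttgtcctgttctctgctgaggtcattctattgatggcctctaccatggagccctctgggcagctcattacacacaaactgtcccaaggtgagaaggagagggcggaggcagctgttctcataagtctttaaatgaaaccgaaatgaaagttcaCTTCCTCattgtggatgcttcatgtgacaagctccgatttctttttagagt
Cd53 (chr3:106790100-106790399, minus strand): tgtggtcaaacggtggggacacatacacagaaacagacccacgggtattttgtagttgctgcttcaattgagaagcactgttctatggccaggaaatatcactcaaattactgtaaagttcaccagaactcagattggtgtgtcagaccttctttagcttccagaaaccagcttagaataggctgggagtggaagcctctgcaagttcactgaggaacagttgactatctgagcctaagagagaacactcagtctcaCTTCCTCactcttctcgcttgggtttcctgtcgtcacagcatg
Trem2 (chr17:48346151-48346450, plus strand): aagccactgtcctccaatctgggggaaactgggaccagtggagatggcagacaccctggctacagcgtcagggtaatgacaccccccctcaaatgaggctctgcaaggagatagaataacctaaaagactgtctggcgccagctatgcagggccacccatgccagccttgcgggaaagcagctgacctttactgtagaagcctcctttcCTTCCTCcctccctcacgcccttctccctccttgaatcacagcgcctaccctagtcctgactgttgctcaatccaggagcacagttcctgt
The match began 194 bases before the start in C1qc and 41 bases before it in Trem2, ran over the start in Ctss, and lay after it in Cd53. C1qc, Ctss and Cd53, a tetraspanin of leukocytes (difference 1.07), had called differences and Trem2 did not. Of the 25 microglia genes 17 had a promoter in the table, and 7 of these (41.2%) held the letters, against 13.5% of the promoters of all genes tested. Of those 7 genes 3 were called, and of the 10 without the letters 8 were called. Over all genes called above 0 the share was 13.6%, and over those called below 0 it was 10.6%.

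Astrocytic genes followed the same order of groups. Gfap, which builds the filaments of astrocytes, read 10.24, 10.34, 11.37, 11.39 and 11.43 in CA1 of rTg4510 mice, against 7.79, 8.09, 8.55, 8.77 and 8.79 in CA1 of tTA mice. In DG it ran from 9.93 over 10.46 to 10.69 in rTg4510 mice, against 9.61, 10.19, 10.32, 10.56 and 10.79 in tTA mice. Only the CA1 groups lay apart, and the difference was 2.43 (SE 0.31, adjusted p = 6.56e-06). Of 19 astrocyte genes 10 were called above 0, beside 3.61% of all genes, and 0 below 0, with a median of 0.59. Aqp4, the water channel of astrocyte end-feet, differed by 1.55 (SE 0.31), Ptprz1, a receptor phosphatase, by 1.43 (SE 0.24) and S100b, a calcium-binding protein, by 0.92. Of 24 reactive astrocyte genes 11 were called above 0 and 0 below 0, with a median of 0.46. They include Vim, the filament vimentin (2.12, SE 0.40, in the brightest of 3 probe sets), and Stat3, a transcription factor of cytokine signalling (1.23). The astrocyte count was 6 and the reactive astrocyte count 3 in the 21 arrays, and they were 3 and 2 in the within-mouse fit. The reactive astrocyte count was 7 without rTg4510 mouse4666 and 7 without tTA mouse4626.

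**Figure D2:**
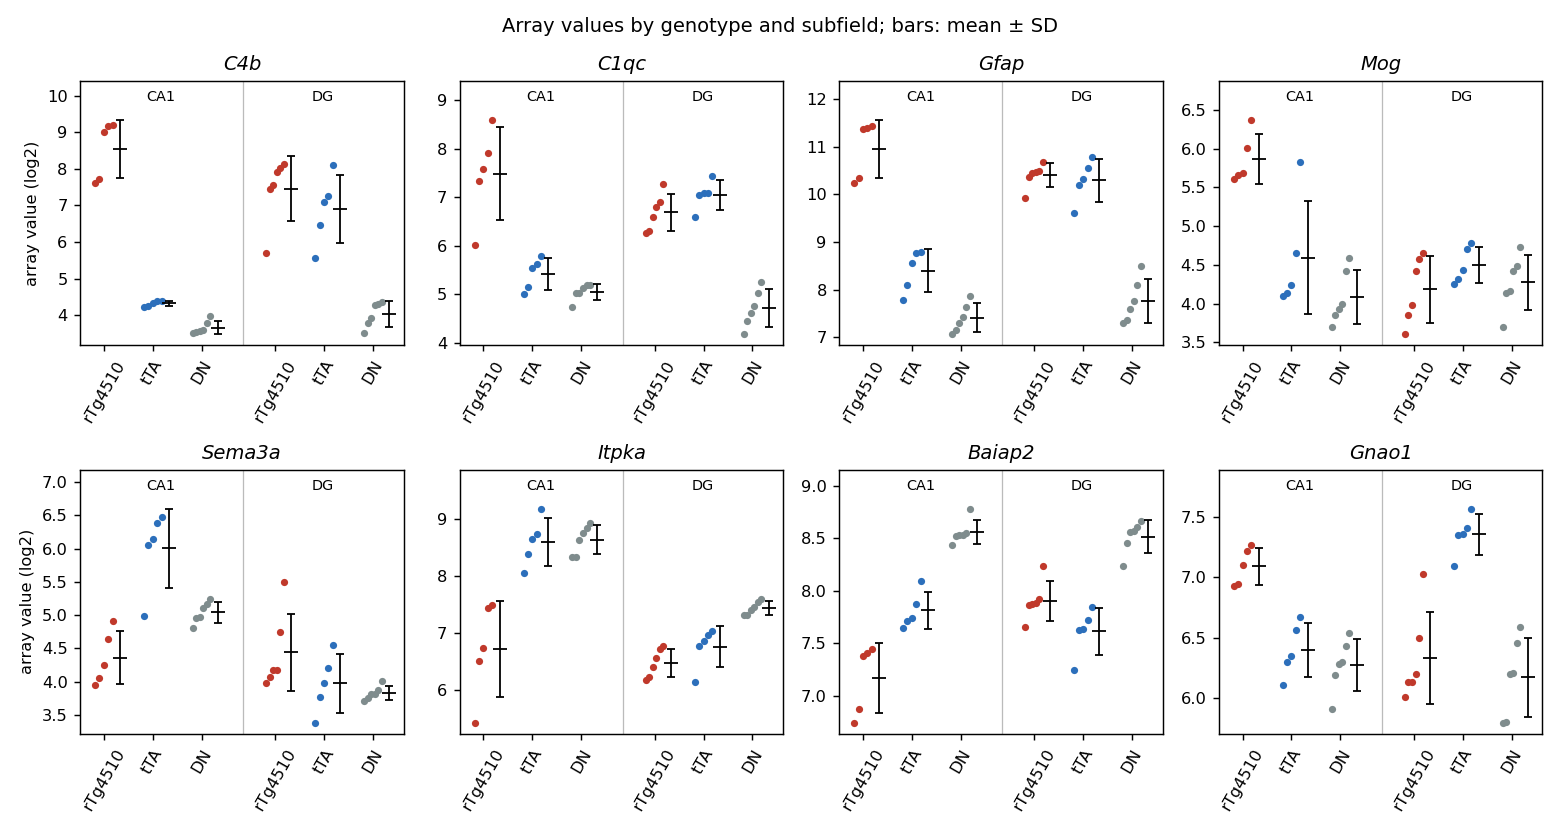
Array values (vertical axes, log2) of 8 genes in CA1 and DG of rTg4510 (red), tTA (blue) and DN mice (grey), 1 point per array, with mean ± SD in black. C4b, C1qc and Gfap were low in CA1 of tTA mice and high in the other groups of transgenic mice, whereas Itpka and Sema3a were high in CA1 of tTA mice.

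Oligodendrocyte genes took the second highest median, 1.30, and the highest share of called members, 12 of 17, all above 0, beside 3.61% of all genes. Their median change was 0.86 in CA1 and −0.27 in DG, where 3 of the 17 changes were positive and 2 genes were called, both below 0. Mog, a protein of the outer myelin surface, read 5.61, 5.65, 5.68, 6.0 and 6.37 in CA1 of rTg4510 mice, against 4.10, 4.14, 4.24, 4.66 and 5.83 in CA1 of tTA mice. In DG Mog ran from 3.60 over 4.20 to 4.65 in rTg4510 mice, against 4.25 to 4.79 in tTA mice. The highest CA1 array of tTA mice, from mouse4592, thus lay among the rTg4510 arrays, and the difference was 1.60 (SE 0.38, adjusted p = 0.00661). Trf, the iron carrier transferrin, differed by 1.73 (SE 0.37), Mobp, a myelin protein, by 1.53 and Cnp, an enzyme of non-compact myelin, by 1.44. Mbp, the main cytoplasmic myelin protein, was 1 of 5 genes named for a larger change in DG: it ran from 7.39 over 7.71 to 8.84 in DG of rTg4510 mice, against 8.71, 8.99, 9.02, 9.12 and 9.16 in tTA mice. Its DG change was −1.12 (adjusted p = 0.00984), its CA1 change 0.36 was not called, and the difference was 1.48 (SE 0.34). A brighter probe set of Mbp differed by 1.17 (adjusted p = 0.0274), but its CA1 change of 0.73 was larger than its DG change of −0.44. Of the 17 genes 9 were called in the 21 arrays and 3 in the within-mouse fit, and 8 to 14 when a mouse was left out.

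Lysosomal genes were all positive in the difference, 34 of 34, and 13 of them were called, beside 3.61% of all genes called above 0. Lamp2, a membrane protein of lysosomes, read 7.76, 8.05, 8.50, 8.84 and 9.09 in CA1 of rTg4510 mice, against 6.66, 6.93, 7.0, 7.04 and 7.24 in CA1 of tTA mice. In DG it lay between 7.73 and 8.54 in rTg4510 mice, against 7.79 to 8.31 in tTA mice, and the difference was 1.37 (SE 0.23, adjusted p = 0.0003). Its other 2 probe sets differed by 1.41 and 1.15. Ctsa, a carboxypeptidase of lysosomes, differed by 1.32 (SE 0.30), Ctsd, the main aspartic protease, by 0.92 and Npc2, a cholesterol carrier, by 0.82. The median over the list was 0.56, and the number called was 6 in the 21 arrays and 2 in the within-mouse fit, and 8 without rTg4510 mouse4653 and also without tTA mouse4592. Of 30 genes of the interferon response and antigen presentation 9 were called above 0 and 0 below 0, with a median of 0.65, and 4 in the 21 arrays and 2 in the within-mouse fit. H2-K1, a class I antigen presentation molecule, differed by 2.05 (SE 0.36), Ifitm3, an interferon-induced membrane protein, by 1.91 (SE 0.38) and Ifit1, an interferon-induced RNA-binding protein, by 1.57 (SE 0.29). H2-K1 has near-identical relatives, and 2 of its other 3 probe sets were called above 0 while the dimmest stood at 0.01. Lcp1, an actin-bundling protein of leukocytes, read 5.17, 5.28, 5.31, 5.78 and 5.79 in CA1 of rTg4510 mice, against 3.30, 3.38, 3.41, 3.45 and 3.75 in tTA mice. In DG Lcp1 lay between 3.68 and 4.15 in rTg4510 mice, against 3.42 to 4.58 in tTA mice, and its difference of 2.03 (SE 0.26, adjusted p = 6.56e-06) was among those with the lowest p.

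Of 41 genes of growth factors and their receptors 10 were called above 0, beside 3.61% of all genes, and 1 below 0, beside 2.53%, with a median of 0.41. Mdk, the heparin-binding growth factor midkine, differed by 1.70 (SE 0.29), Fgfr2, a fibroblast growth factor receptor, by 1.20 and Ntrk2, the BDNF receptor, by 0.80. The count above 0 was 3 in the 21 arrays, 1 in the within-mouse fit and 6 without tTA mouse4580. Of 22 endothelial and mural genes 6 were called above 0, such as Kcnj8, a potassium channel of pericytes (1.54, SE 0.34), and Cldn5, the tight junction protein of endothelium (0.97), but only 2 without rTg4510 mouse4666, 2 without tTA mouse4637, 3 without rTg4510 mouse4653 and 3 without tTA mouse4626. It was 3 in the 21 arrays and 0 in the within-mouse fit. Of 13 meninges and fibroblast genes 2 were called above 0, one of them Ptgds, the lipocalin-type prostaglandin D synthase (2.19, SE 0.49), which oligodendrocytes also express, and these were 2 in the 21 arrays and 0 in the within-mouse fit. Of 9 choroid plexus and ependyma genes limma called 0, with 2 at an unadjusted p below 0.05, and of 3 red blood cell genes 0, with 1 at an unadjusted p below 0.05. Both counts were also 0 in the within-mouse fit and in the 21 arrays.

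Called neuronal genes of CA1 lay mostly below 0. Of 11 CA1 pyramidal genes 5 were called below 0, beside 2.53% of all genes, and 1 above 0, and the median of −1.0 was the lowest of all lists, from a CA1 change of −0.98 and a DG change of −0.13. The member called above 0 was Dcn, the proteoglycan decorin, which fibroblasts also express (0.89). In the 21 arrays 2 of the 11 were called below 0 and 0 above 0, and in the within-mouse fit 0 in either direction. Itpka, an inositol trisphosphate kinase that bundles actin in dendritic spines, read 5.42, 6.51, 6.73, 7.45 and 7.49 in CA1 of rTg4510 mice, against 8.06, 8.39, 8.65, 8.74 and 9.19 in CA1 of tTA mice. In DG it ran from 6.17 over 6.48 to 6.77 in rTg4510 mice, against 6.13, 6.78, 6.86, 6.97 and 7.03 in tTA mice. The CA1 groups did not overlap, and the difference was −1.60 (SE 0.29, adjusted p = 0.000689). Wfs1, a membrane protein of the endoplasmic reticulum, and Pou3f1, a transcription factor of CA1 cells, fell in CA1 by 1.26 and by 1.81, but their differences of −0.69 (95% interval −1.30 to −0.08, adjusted p = 0.201) and −1.0 (−2.17 to 0.17) were not called. The level of the list, averaged over its members, was 6.22 to 7.23 in CA1 of rTg4510 mice against 7.38 to 7.79 in tTA mice. In DG, where these genes are low, it was 5.66 to 6.12 against 5.65 to 6.16. On the same CA1 arrays the microglia list lay at 6.04 to 6.87 in rTg4510 mice against 5.16 to 5.54 in tTA mice, and the oligodendrocyte list at 7.14 to 7.99 against 6.38 to 7.15. The part that a shift in cell makeup had in the neuronal values was not tested.

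**Figure D3:**
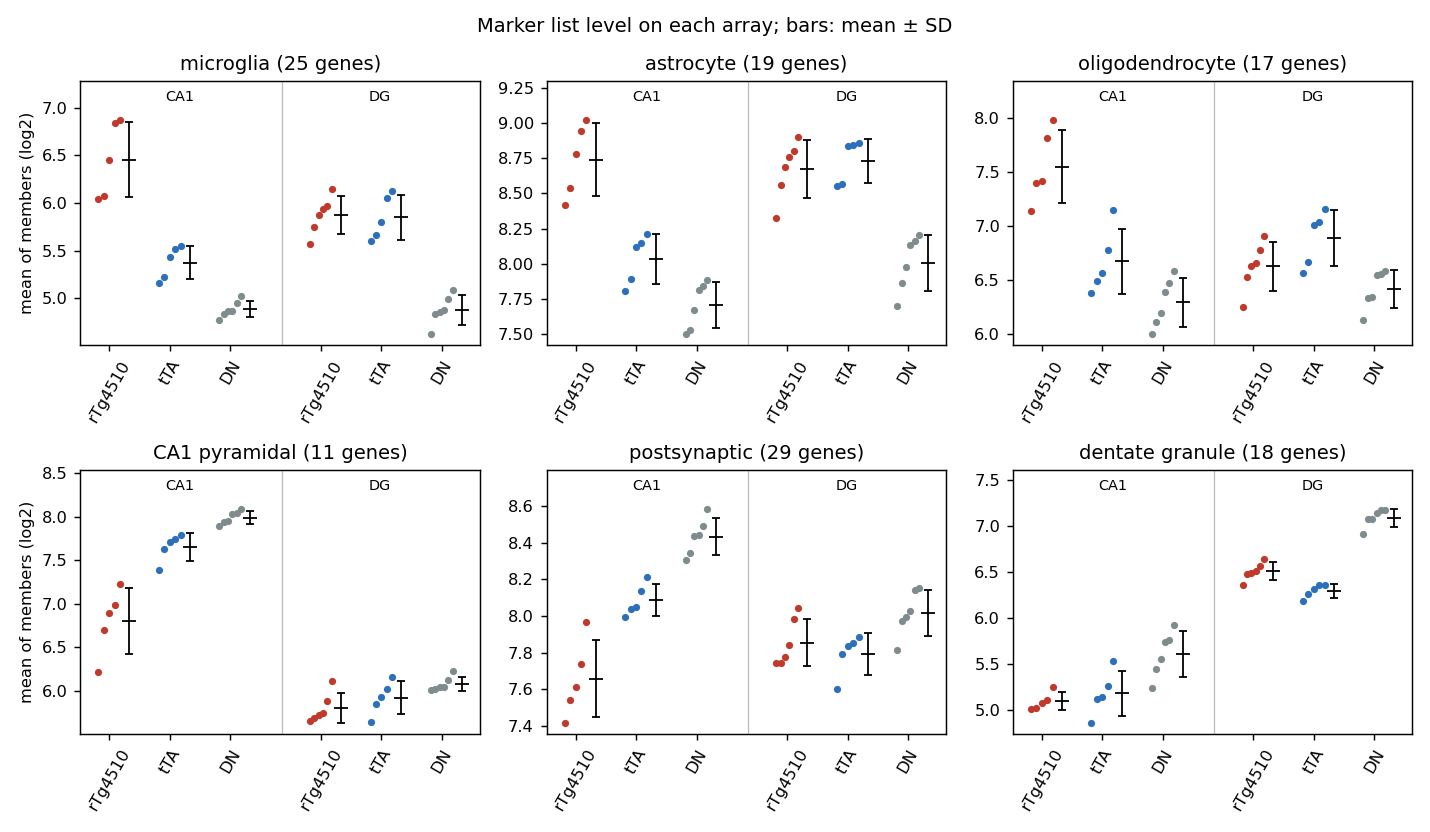
Mean of the members of 6 marker lists on each array (vertical axes, log2) for rTg4510 (red), tTA (blue) and DN mice (grey) in CA1 and DG, with mean ± SD in black. The microglia and astrocyte lists did not overlap between rTg4510 and tTA mice in CA1 and overlapped in DG, and the CA1 pyramidal and postsynaptic lists were lower in CA1 of rTg4510 mice.

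Postsynaptic genes had a median of −0.53, with 10 of 29 called below 0, beside 2.53% of all genes, and 0 above 0. Baiap2, the scaffold IRSp53 of spines, read 6.74, 6.87, 7.38, 7.41 and 7.45 in CA1 of rTg4510 mice, against 7.64, 7.71, 7.74, 7.87 and 8.09 in CA1 of tTA mice. In DG, where the groups overlapped, it ran from 7.65 over 7.88 to 8.23 in rTg4510 mice, against 7.24, 7.62, 7.63, 7.72 and 7.84 in tTA mice. The difference was −0.92 (SE 0.17, adjusted p = 0.000689), while 3 dimmer probe sets of Baiap2 stood between −0.61 and 0.07 and were not called. Other called members were the NMDA receptor subunits Grin2b (−1.34, from −0.28 in CA1 and 1.06 in DG) and Grin2a (−1.20), the AMPA receptor subunit Gria2 (−0.43), and Nrgn, a calmodulin-binding protein of spines (−0.89). A dimmer probe set of Grin2b stood at −0.16, with a DG change of 0.08, and was not called. Homer2, a scaffold of metabotropic receptors (−0.64, 95% interval −1.08 to −0.20), and Camk2a, the kinase whose promoter drives the transactivator (−0.30, −0.64 to 0.05), were not called. In the 21 arrays 3 of the 29 were called, and in the within-mouse fit 0 were. The count was 5 without rTg4510 mouse4666, and 6 without rTg4510 mouse4600, rTg4510 mouse4653 or tTA mouse4592. Of 24 presynaptic genes 2 were called below 0, beside 2.53% of all genes, with a median of −0.06. Of 8 GABA receptor genes 1 was called above 0, beside 3.61%, with 0 called of either list in the 21 arrays or in the within-mouse fit.

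Ion channels and signalling genes added some of the most negative values. Of 44 voltage-gated channel genes 7 were called below 0, beside 2.53% of all genes, and 0 above 0. The count was 5 in the 21 arrays, 2 in the within-mouse fit, and 4 without rTg4510 mouse4653, rTg4510 mouse4666 or tTA mouse4637. Scn3b, a beta subunit of sodium channels, read 6.82, 7.17, 7.51, 8.15 and 8.17 in CA1 of rTg4510 mice, against 8.74, 8.80, 8.94, 9.02 and 9.38 in CA1 of tTA mice. In DG it lay between 7.11 and 8.08 in rTg4510 mice, against 7.22 to 7.82 in tTA mice, and the difference was −1.41 (SE 0.21, adjusted p = 7.02e-05). A dimmer probe set of Scn3b differed by −1.93. Kcnab1, a beta subunit of potassium channels, differed by −1.72 (SE 0.32), and Cacna1h, a T-type calcium channel, by −1.25. Htr5b, a serotonin receptor, read 3.06, 3.55, 3.66, 3.91 and 5.20 in CA1 of rTg4510 mice, against 5.27, 5.50, 5.50, 5.73 and 6.51 in tTA mice, and its difference was −1.69 (SE 0.30). In DG it lay between 3.26 and 3.81 in rTg4510 mice, against 3.39 to 3.94 in tTA mice. Rasgrf1, an exchange factor that couples NMDA receptors to Ras, differed by −0.83 (SE 0.17): its CA1-minus-DG values lay between −0.89 and −0.09 in rTg4510 mice, against 0.21 to 0.39 in tTA mice. Of 47 G protein and cyclic nucleotide genes 6 were called below 0, beside 2.53% of all genes, and 2 above 0, beside 3.61%, but 1 below 0 in the 21 arrays and 1 in the within-mouse fit.

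Sema3a, a secreted guidance protein that repels axons, had the most negative difference among the genes that met the stricter condition. It read 3.96, 4.05, 4.26, 4.63 and 4.92 in CA1 of rTg4510 mice, against 4.99, 6.05, 6.14, 6.38 and 6.47 in CA1 of tTA mice. Its DG values ran from 3.98 over 4.18 to 5.50 in rTg4510 mice, against 3.38, 3.77, 3.98, 4.20 and 4.56 in tTA mice. The difference was −2.11 (SE 0.30, adjusted p = 2.6e-05), but 2 dimmer probe sets of Sema3a stood at −0.03 and −0.76 and were not called. Of 43 axon guidance and adhesion genes 3 were called below 0, beside 2.53% of all genes, the others being the ephrin receptors Epha6 (−1.08) and Epha7 (−1.03). In the 21 arrays 1 of the list was called, and in the within-mouse fit 1. Stac, an adaptor of calcium channels, differed by −1.77 (SE 0.29) and Rin1, a Ras effector, by −1.58 (SE 0.30).

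Immediate early genes, which neurons switch on with activity, had calls in both directions. Of 33 measured, 6 were called below 0, beside 2.53% of all genes, and 1 above 0, beside 3.61%, with a median of −0.13. Plk2, a kinase that acts on spines, differed by −1.08 (SE 0.19), Egr1 by −1.23 and Nr4a1 by −1.06, the last 2 being transcription factors that were not called in the 21 arrays. Arc, which takes AMPA receptors from the surface, had a value of −0.92 (95% interval −1.70 to −0.15, adjusted p = 0.172). Jun was the member called above 0: it read 8.25, 8.80, 8.84, 8.90 and 9.38 in CA1 of rTg4510 mice, against 6.96, 7.22, 7.54, 7.67 and 7.81 in CA1 of tTA mice. In DG it lay between 9.87 and 10.12 in rTg4510 mice, against 9.70 to 9.92 in tTA mice, and the difference was 1.22 (SE 0.23, adjusted p = 0.000924). A second probe set of Jun differed by 0.82 and was not called. The count below 0 was 1 in the 21 arrays, 0 in the within-mouse fit, and 3 without tTA mouse4626 and also without tTA mouse4637.

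Single genes of cell cycle control were also called above 0. Cdkn1a, the cyclin-dependent kinase inhibitor p21, read 4.58, 4.63, 5.39, 6.04 and 6.14 in CA1 of rTg4510 mice, against 3.28, 3.35, 3.43, 3.52 and 3.95 in CA1 of tTA mice. The DG arrays ran from 3.50 over 3.66 to 4.34 in rTg4510 mice, against 2.86, 3.91, 4.22, 4.35 and 4.52 in tTA mice, and the difference was 1.99 (SE 0.42, adjusted p = 0.00225). Gadd45a, a stress-induced partner of p21, differed by 1.30 (SE 0.31). Of 29 genes of p53, cell death and stress 5 were called above 0, beside 3.61% of all genes, with a median of 0.10 and 16 of the 29 above 0. The count was 3 in the 21 arrays and 2 in the within-mouse fit. Ccnd2, a D-type cyclin, read 5.35, 5.70, 5.71, 6.24 and 6.55 in CA1 of rTg4510 mice, against 3.38, 3.55, 3.94, 4.71 and 5.41 in CA1 of tTA mice. Its DG values ran from 4.27 over 5.50 to 6.54 in rTg4510 mice, against 6.18, 6.50, 6.68, 6.80 and 6.81 in tTA mice, so the groups overlapped in both subfields, in CA1 by 1 array of each. The CA1 change was 1.74, the DG change of −0.99 was not called, and the difference was 2.73 (SE 0.42), and 5 other probe sets of Ccnd2 differed by 0.64 to 1.58, with 4 of them called.

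A few genes were called in both subfields in opposite directions. Gnao1, the alpha subunit of the neuronal G protein Go, had the lowest adjusted p among them. It read 6.93, 6.94, 7.10, 7.22 and 7.27 in CA1 of rTg4510 mice, against 6.11, 6.30, 6.35, 6.57 and 6.67 in CA1 of tTA mice. The DG arrays ran from 6.01 over 6.16 to 7.03 in rTg4510 mice, against 7.09, 7.35, 7.37, 7.41 and 7.57 in tTA mice. Neither pair of groups overlapped, and the change was 0.70 in CA1 and −1.03 in DG, a difference of 1.72 (SE 0.21, adjusted p = 6.56e-06). A second probe set gave 1.71, but the third and brightest of Gnao1 stood at −0.31 and was not called. Cryab, a small heat shock protein of glia, changed by 0.85 in CA1 and −0.76 in DG, Pltp, a phospholipid transfer protein, by 0.89 and −0.82, Gpr37l1, a receptor of astrocytes, by 0.71 and −0.64, and Car2, the carbonic anhydrase of oligodendrocytes, by 0.49 and −0.59. With the other sign, Ndel1, a partner of dynein, changed by −0.50 in CA1 and 0.60 in DG, Bcl11b, a transcription factor of granule and CA1 neurons, by −0.93 and 0.53, Ndst4, a heparan sulfate enzyme, by −0.64 and 0.89, and Gpatch8 by −0.65 and 0.69. The brighter probe set of Cryab was called at 0.98, with changes of 0.96 in CA1 and −0.01 in DG, and so did not show opposite changes. That of Ndst4 was called at −1.53, with −0.93 in CA1 and 0.60 in DG, the last not called. Dimmer ones of Cryab and Ndel1 stood at −0.10 and −0.02, and 2 others of Gpatch8 at −1.0 and −0.70, none of them called. Ndel1 lay between 5.76 and 6.81 in DG of rTg4510 mice, against 5.37 to 5.96 in tTA mice, and between 5.89 and 6.44 in CA1 of rTg4510 mice, against 6.41 to 6.96 in tTA mice.

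**Figure D4:**
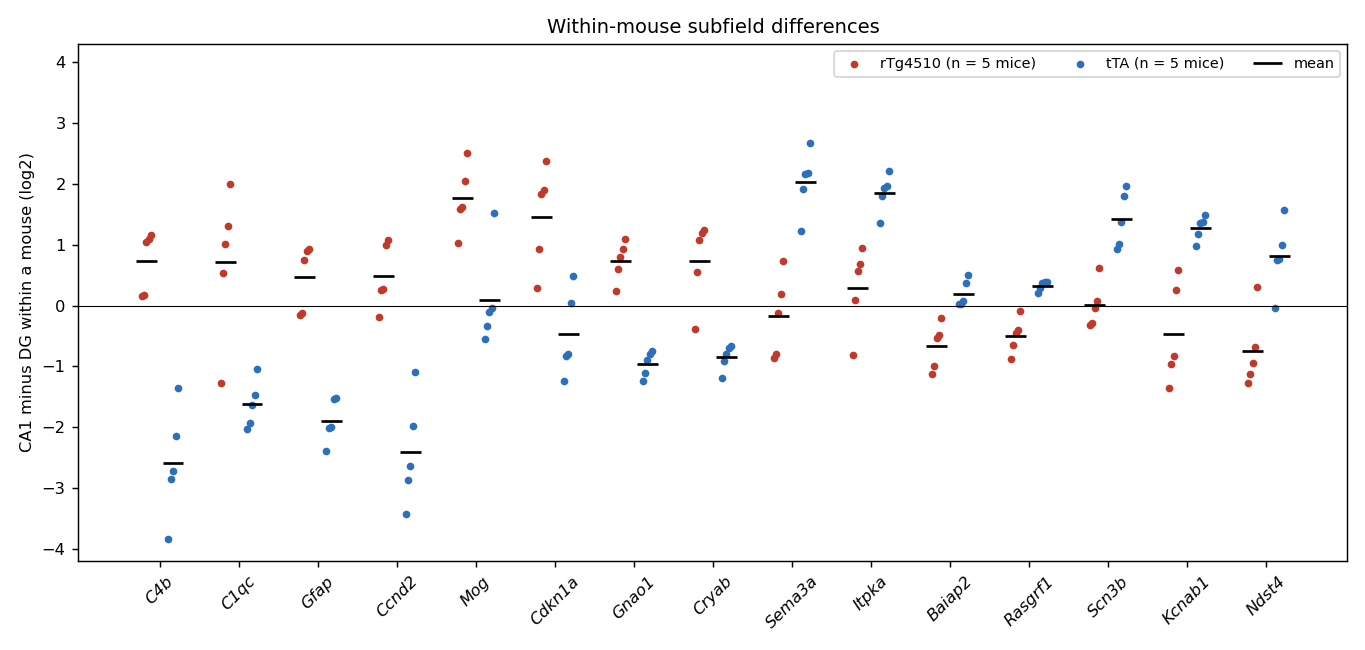
CA1 minus DG within a mouse (vertical axis, log2) for 15 genes in the 5 rTg4510 (red) and 5 tTA mice (blue) that gave both subfields, with the mean as a black bar. C4b lay between 0.16 and 1.16 in rTg4510 mice and between −3.84 and −1.35 in tTA mice, and Itpka between −0.81 and 0.94 in rTg4510 mice and between 1.35 and 2.21 in tTA mice.

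Among genes whose change was larger in DG, Il1rapl2, a receptor of the interleukin-1 family at synapses, rose in DG of rTg4510 mice. It ran there from 4.54 over 4.78 to 5.27, against 3.46, 3.58, 3.60, 3.70 and 4.10 in tTA mice, and these groups did not overlap. In CA1 it read 3.31, 3.50, 3.85, 4.41 and 5.39 in rTg4510 mice, against 4.39, 4.54, 4.57, 4.70 and 4.71 in tTA mice. The DG change was 1.16 (adjusted p = 0.00383), the CA1 change −0.49 was not called, and the difference was −1.65 (SE 0.31). A dimmer probe set of Il1rapl2 stood at −1.0 (adjusted p = 0.0515). Dscaml1, a cell adhesion molecule, changed by 0.96 in DG and −0.64 in CA1, a difference of −1.60 (SE 0.38), and a dimmer probe set of Dscaml1 stood at −0.18 and was not called.

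Of 18 dentate granule genes 2 (11.1%) were called below 0, against 2.53% of all genes. They were Bcl11b and the calcium sensor Doc2b (−0.86), and 1 gene of the list was called in the 21 arrays and 1 in the within-mouse fit. The median was −0.27, from a CA1 change of 0.06 and a DG change of 0.19. On these arrays both called genes read higher in CA1 than in DG in all 5 tTA mice. Bcl11b did so by 0.515 to 1.557 and Doc2b by 0.67 to 2.17. The 2 calls are therefore not read as a change of granule cells. Prox1, which specifies granule cells, had a value of −0.79 (95% interval −1.91 to 0.33) and Calb1, the calcium buffer calbindin, of −1.11 (−2.31 to 0.09), neither called. Of 15 CA3 pyramidal and mossy cell genes 2 were called above 0, beside 3.61% of all genes, and the count was 1 in the 21 arrays and 0 in the within-mouse fit. Of these Nectin3, an adhesion molecule, differed by 1.44 (SE 0.29). Other probe sets of Nectin3 were called at 1.51 and 1.73, while dimmer ones stood at 0.39 and −0.02 and were not called. Of 24 inhibitory interneuron genes 5 were called above 0, beside 3.61% of all genes, with a median of 0.58 and a CA1 change of 0.75. The count was 1 in the 21 arrays, 1 in the within-mouse fit, and 1 to 8 when a mouse was left out, the lowest without rTg4510 mouse4666. The 1 called in the 21 arrays was Dlx2, a transcription factor of interneurons (1.83, SE 0.35). Gad2, a GABA-synthesizing enzyme (0.80, 95% interval 0.27 to 1.33, adjusted p = 0.0643), and Npy, a neuropeptide (−0.28, −0.84 to 0.28), were not called. Of 21 neurogenesis genes 1 was called above 0, beside 3.61% of all genes, namely Sox2, a factor of neural stem cells and astrocytes (1.12, SE 0.25).

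Mapt, the mouse tau gene, was not called on any of its 3 probe sets. The brightest read 6.11, 6.46, 6.65, 6.67 and 6.71 in CA1 of rTg4510 mice, against 6.06, 6.18, 6.38, 6.50 and 6.64 in CA1 of tTA mice. In DG it lay between 6.16 and 6.69 in rTg4510 mice, against 5.63 to 6.63 in tTA mice, and its difference of −0.14 (95% interval −0.58 to 0.30) was not called. The second stood at 0.06. The dimmest stood at −1.20 (adjusted p = 0.0683), with a change of −0.15 in CA1 and of 1.05 in DG, where it was called (adjusted p = 0.0382). The probe sets were designed on mouse transcripts, so these values do not check the human transgene. Fgf14, a regulator of sodium channels, was called at −0.46 (SE 0.13, adjusted p = 0.0314), but not in the 21 arrays (adjusted p = 0.15). A dimmer probe set of Fgf14 stood at −0.70 and was not called. Of 30 genes of the cytoskeleton and tau kinases 2 were called below 0, beside 2.53% of all genes below 0 and 6.14% in either direction. The 2 were Cdk5r2 (−0.60, SE 0.10) and Cdk5r1 (−0.72), both activators of the tau kinase CDK5, against 1 called in the 21 arrays and 0 in the within-mouse fit. Of 3 other probe sets of Cdk5r1 1 was called, at −0.73. Cdk5r2 read 10.99, 10.99, 10.99, 11.20 and 11.23 in CA1 of rTg4510 mice, against 11.61, 11.73, 11.81, 11.83 and 12.03 in tTA mice. A dimmer probe set of Cdk5r2 stood at −0.43 and was not called.

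Housekeeping lists are read beside the 6.14% of all genes called in either direction. Of 73 oxidative phosphorylation genes 1 was called, of 63 cytosolic ribosome genes 1, of 35 proteasome genes 0 (1 at an unadjusted p below 0.05 in limma, and 0 in the within-mouse fit), of 32 heat shock and unfolded protein genes 1 above and 1 below 0, and of 18 cholesterol synthesis genes 1, with medians between −0.09 and 0.13. Ribosome genes did change in DG, where 25 of 63 fell with a median of −0.29, beside 1.67% of all genes, and 8 of 63 fell in CA1 with a median of −0.15, beside 7.0% of all genes.

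**Figure D5:**
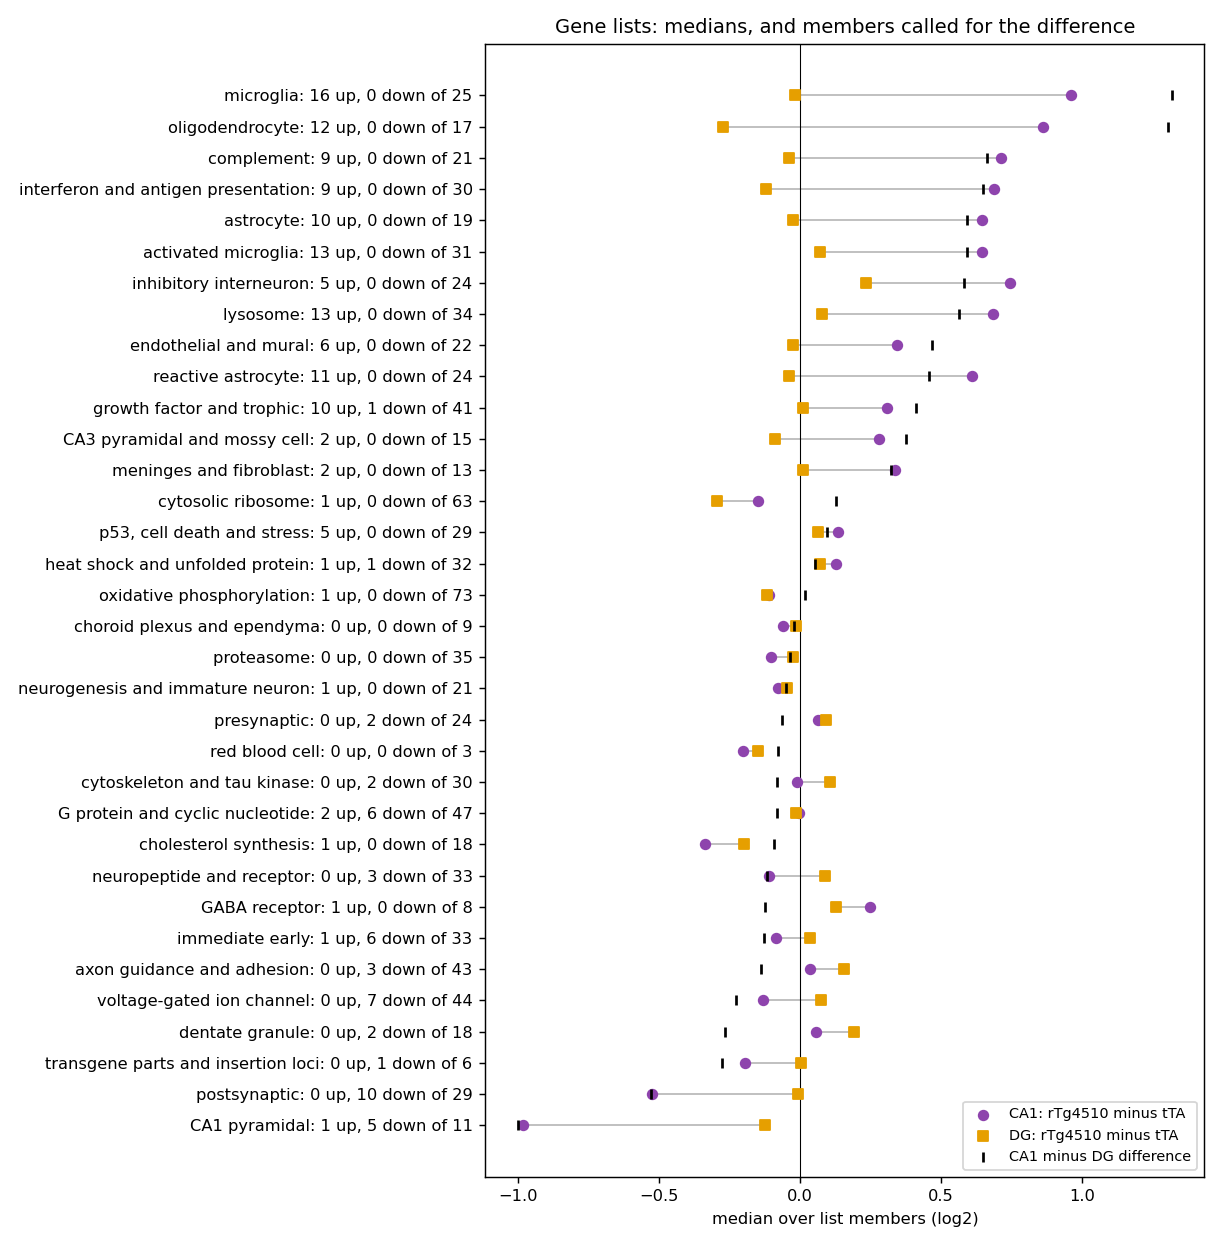
Medians over the members of 34 gene lists (horizontal axis, log2) for the change with mutant tau in CA1 (purple circles), in DG (orange squares) and for the CA1-minus-DG difference (black ticks), with the number of members called above (up) and below 0 (down). The microglia list stands at the top with medians of 1.32 for the difference and −0.02 in DG, and the CA1 pyramidal and postsynaptic lists at the bottom.

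The tTA mice that served as the control in both subfields did not start at the same level in both. Against DN mice, C4b was 2.87 higher in DG of tTA mice (adjusted p = 1.4e-07) and 0.66 higher in CA1, which was not called. Gfap was 2.53 higher in DG and 0.99 higher in CA1, and C1qc 2.33 and 0.38. Of the 25 microglia genes 16 were higher in DG of tTA mice than in DN mice and 8 were higher in CA1, and of the 19 astrocyte genes 16 and 9, beside 9.48% of all genes in DG and 10.4% in CA1. C4b read 3.50 to 3.97 in CA1 and 3.50 to 4.36 in DG of DN mice. Over the 723 probe sets called above 0, the median tTA minus DN change was 0.54 in DG and 0.17 in CA1. Over the 510 called below 0 it was −0.33 in DG and −0.15 in CA1, and over all probe sets 0.03 and 0.05. These comparisons share the tTA arrays with the CA1-minus-DG difference, so each is given only beside the other. With DN mice in place of tTA mice as the control, a comparison added after the values above were seen, 1290 probe sets had a called CA1-minus-DG difference (5.7%). In it the difference was 1.39 for C4b (adjusted p = 0.0729), 0.90 for Gfap (0.0652) and 0.45 for C1qc (0.609), none of them called. It was 1.22 for Lcp1 (0.00093), 2.04 for Cdkn1a (0.000516), 1.75 for Jun and 1.88 for Mog, all called. It was −2.13 for Kcnab1, −2.73 for Htr5b, −1.30 for Sema3a and −0.95 for Itpka, all called, and 0.16 for Ccnd2, not called. Over the 723 probe sets, picked with tTA as the control, the median difference was 0.59 with DN and 1.03 with tTA as the control. Over the 510 it was −0.55 with DN and −0.78 with tTA. Of the microglia genes 3 were called above 0 with DN as the control, of the oligodendrocyte genes 11, beside 2.73% of all genes, and of the postsynaptic genes 15 below 0, beside 3.41%. For the other lists, the complement and astrocyte lists among them, the counts with DN as the control are not given here. Both transgenes separate rTg4510 from DN mice, so mutant tau and the transactivator cannot be told apart in these values.

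The difference also stood beside the normal contrast of the subfields, taken from DN arrays. These enter the CA1-minus-DG difference only through the spread. Of the 510 probe sets called below 0, 205 (40.2%) were higher in CA1 than in DG of DN mice, against 8.89% of all probe sets, and these are 10.2% of the 2012 so found. Of the 723 called above 0, 141 (19.5%) were higher in DG than in CA1 of DN mice, against 8.59%, and these are 7.25% of the 1944 so found. A transcript that is dim in a subfield, such as Htr5b in DG, can hardly fall there. The part of this in these shares was not tested. Htr5b was 3.08 higher in CA1 of DN mice, Stac 2.94, Kcnab1 1.69, Plk2 1.73 and Itpka 1.20. Jun lay 2.91 lower in CA1 than in DG of DN mice, and C4b (−0.37), Gfap (−0.36), C1qc (0.33) and Gnao1 (0.10) did not differ by a called amount.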

How the data were processed

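Microdissected hippocampal cell layers of 17 mice were hybridised to 49 Affymetrix HT-MG-430A arrays. The authors deposited log2 values of RMA (background correction, quantile normalization and probe set summary), running from 1.944 to 13.826. The study's methods name anti-log values, whereas the deposited table holds log2. After 90 control probe sets were left out, 22626 remained. By GEO's platform annotation 18003 carried 1 gene symbol, 287 several and 4336 none, and 17977 were matched to RefSeq by Entrez ID.

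A linear model with 1 mean for each of 9 groups was fitted in limma 3.58.1 (R 4.3.3, statmod 1.5.0), with the mouse as a random block (correlation 0.117) and Benjamini-Hochberg adjustment over all probe sets, called at an adjusted p below 0.05. Arrays of a mouse come from the same animal. Their deviations from the group means correlated at a median of 0.119 over 47 pairs, against −0.00146 between different mice. The number of arrays limits the precision. In simulated data for this difference over 22626 probe sets, 16 of 67 changes of 0.5, 50 of 67 of 1 and 66 of 66 of 2 were called, with 6 unchanged probe sets. The simulation gave a probe set the same spread in all 9 groups, whereas the DN groups varied less in the data. It therefore does not measure how many false calls the fit makes on the real arrays.

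The gene lists and members were chosen with earlier results of these data known. Each list takes 1 probe set a gene, the brightest. Some genes stand in more than 1 list, so the counts of different lists are not independent. Named genes were the 15 largest differences in each direction, up to 4 called members of each list and 2 in the other direction, 10 with opposite changes, 5 with the larger change in DG, and a set always given. The restriction of detailed values to 63 probe sets, and the comparison with DN mice as control, were chosen after the values were seen. Alternatives covered the arrays used, the block, analysis of variance, normalization, weights, dim probe sets, RNA quality and each mouse left out. For promoters the first listed for a symbol was taken.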

Additional observations from a re-analysis of the deposited data

Results flagged for a closer look

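The CA1-minus-DG difference itself tests whether the change from tTA to rTg4510 mice differed between the subfields. It did for 1233 probe sets, with 16 called in both subfields with opposite signs. As given above, the tTA control did not start at the same level in both subfields. The part of this in the count was not tested.

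Among 76 probe sets described singly, 304 groups were examined for an array that stood far from the rest of its group, and 14 had one. Chance gives about 1 in 20 groups. In DG of rTg4510 mouse4621 the low array read 5.703 for C4b and 8.437 and 8.59 for 2 probe sets of Vim. Among the other rTg4510 mice, a second probe set of Scn3b stood high in DG of mouse4600 at 6.943, Trf low in DG of mouse4666 at 5.673, Ctsa low in CA1 of mouse4549 at 5.676 and Car2 high in DG of mouse4549 at 9.501. In tTA mouse4570 the low array read 4.993 for Sema3a and 6.938 for Kcnab1 in CA1, and 6.133 for Itpka and 7.973 for Tyrobp in DG. Among the other tTA mice the high array read 6.673 for Trf in CA1 of mouse4592, 4.946 for Ndst4 in CA1 of mouse4626 and 5.959 for Ndel1 in DG of mouse4637. Each of these probe sets was still called when the mouse concerned was left out.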

How the results depend on the processing

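The count of 1233 probe sets (723 above and 510 below 0) varied with the handling of the mouse and with which arrays entered. With only the 21 arrays of the comparison it was 490 (299 and 191). These leave fewer arrays to estimate the spread, and they leave out the DN arrays, whose probe sets varied less. The part of each in the lower count was not tested. By analysis of variance on log2 values the count was 771 (473 and 298). With the replicate block (the mouse) as a fixed effect, so that only within-mouse pairs count, it was 135 (97 and 38), and with no replicate block it was 852, of which 322 lay below 0. The cause of the last shift was not tested. Leaving out 1 mouse at a time gave 769 to 1650 probe sets, 474 to 936 above and 295 to 714 below 0. The lowest counts came without rTg4510 mouse4653, and without rTg4510 mouse4666 they were 801, 475 and 326. Without tTA mouse4626 the count below 0 was 339. The other 7 alternatives gave 957 (analysis of variance on anti-log values) to 1227 (a trended, robust variance prior) probe sets. Of the 957, 832 were among the 1233, and of 1020 called with array weights 914 were. With only probe sets at or above the median level, 1211 were called, 922 of them among the 1233. Fewer probe sets were tested there, so that count is not on the same footing. Of 118 called probe sets named, 52 were no longer called with the 21 arrays and 86 with the fixed block, with no change of sign. The brightest probe set of Mapt, not called in any of these, lay between −0.239 (without tTA mouse4580) and 0.0497 (without tTA mouse4570, where its sign changed) when a mouse was left out.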
